A study of Homo sapiens with 12 samples.

Results

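The keratin genes of 4 ovarian cancer cell lines were examined as a family. A gene was taken as a member when its symbol in the array's annotation was KRT followed by a number and at most 1 letter, with pseudogenes and the keratin-associated proteins left out, which gave 44 of the 19775 genes measured. Other keratins, among them KRT6A, KRT17, KRT81 and KRT86, were not analysed here, and all counts refer to the 44. Where a member had several probe sets, the one brightest on average across the 12 arrays was read. In class lists drawn from the consensus keratin nomenclature 5 members are keratins of simple epithelia, 16 of stratified epithelia, 7 of the root sheath of hair, 12 of the hair shaft, and 4 (KRT23, KRT24, KRT80 and KRT222) fall in none of these classes. Of the 44, 23 are type I and 20 type II keratins, and KRT222 was put in neither type.

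Total RNA of parental and untreated cultures was hybridised to Affymetrix U133 Plus 2.0 arrays, 3 for each line: IGROV1, SKOV3, TOV112D (titled T112D) and TOV21G. TOV21G came from a clear cell and TOV112D from an endometrioid carcinoma, and SKOV3 is known for amplification of ERBB2. SKOV3 was the line grown in DMEM, while RPMI was used for the other lines, so medium and line cannot be told apart for it. All values below are log2 expression levels after robust multi-array averaging (RMA), and a member was called different at a limma adjusted p under 0.05 (Benjamini-Hochberg over all 19775 genes) with line means at least 1 log2 unit apart. No label states that the replicate arrays stem from different cultures, and p-values then reflect array-to-array spread, which may be technical.

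Keratins are the intermediate filament proteins of epithelial cells. A filament is built from heterodimers of an acidic type I and a basic type II keratin, and the genes of each type lie together in a cluster, type I on chromosome 17 and type II, with the type I gene KRT18, on chromosome 12. KRT8 and KRT18 are the first keratins of the embryo and the general pair of simple epithelia, to which KRT7, KRT19 and KRT20 are added by tissue. Pathologists use KRT7 and KRT20 together to tell ovarian from intestinal carcinomas.

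The data bear most directly on 3 type I genes that lie close to each other on chromosome 17 and were high in TOV112D: KRT12, KRT20 and KRT40. The 250 bases before their transcription starts are shown because these genes differed between the lines in the same way. They come from RefSeq on the minus strand of build GRCh38.p14, at chr17:40867224-40867473 for KRT12, chr17:40885243-40885492 for KRT20 and chr17:40984327-40984576 for KRT40, where 4 starts are listed and the most 3′ one was taken. Capitals mark each match to TATAA, the core of the TATA box, on either strand.
KRT12: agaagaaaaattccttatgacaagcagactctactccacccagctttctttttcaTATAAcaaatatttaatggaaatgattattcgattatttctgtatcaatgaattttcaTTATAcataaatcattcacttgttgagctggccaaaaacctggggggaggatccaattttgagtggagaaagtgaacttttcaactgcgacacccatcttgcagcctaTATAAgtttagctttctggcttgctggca
KRT20: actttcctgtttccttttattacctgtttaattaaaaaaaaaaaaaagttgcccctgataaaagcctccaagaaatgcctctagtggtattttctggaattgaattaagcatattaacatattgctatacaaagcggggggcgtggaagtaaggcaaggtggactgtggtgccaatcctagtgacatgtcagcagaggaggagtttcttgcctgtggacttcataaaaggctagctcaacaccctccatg
KRT40: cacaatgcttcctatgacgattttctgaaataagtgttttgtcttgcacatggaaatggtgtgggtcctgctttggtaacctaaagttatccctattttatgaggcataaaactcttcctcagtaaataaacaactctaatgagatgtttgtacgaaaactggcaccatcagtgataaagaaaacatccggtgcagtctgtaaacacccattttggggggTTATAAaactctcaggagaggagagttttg
KRT12 held 3 such matches and KRT40 a pair that overlap, and in both genes a TATAA began 29 bases before the start (position -29, with -1 the base next to the start). KRT20 held none. TATAA on either strand was found in 23 of the 33 windows listed for keratins (69.7%) and in 20.5% of the 34943 windows of all genes, each window running from 250 bases before to 50 bases after the start. The table held a window for 29 of the 44 members, which these shares describe, and none for KRT7, KRT15, KRT18, KRT19, KRT80 and KRT222, 6 of the 10 members that differed between lines. Motif CANNTG, the E-box, was in 90.9% of the keratin windows and 68.7% of all windows, and GGGCGG, the core of an Sp1 site, in 18.2% and 44.9%. TGANTCA, an AP-1 site, was in 0 of the 33 keratin windows and 7.7% of all windows, and CTTTGAT, a TCF/LEF site, in 3.0% and 2.6%. These windows of neighbouring, related genes are not independent of each other, and the shares are descriptions.

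Over all genes the correlation was 0.9972 to 0.9976 within lines and 0.8892 to 0.9395 between lines. With 3 arrays per line, the median standard error of a line's difference from the mean of the remaining lines was 0.077. ERBB2 went against the label of SKOV3, with 8.14 there and 8.48 to 9.01 in the other lines, and all 5 early embryo markers measured were above the median gene there. The group is therefore called the arrays labelled SKOV3, and directions given for it refer to what was hybridised under that label. Keratinocyte markers (7 measured) and blood cell markers (7 measured) stayed under the median of all gene values, 5.68, in every line. The log2 of the keratinocyte markers' summed level ran from 6.21 to 6.45 over the 12 arrays.

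Most of the 44 members were dim, and the differences lay in a few members. At least 1 line mean reached the median of all gene values (5.68) in 9 of the 44 members: all 5 simple keratins, KRT10 and KRT12 of the stratified class, KRT40 of the hair class, and KRT80. Of all 19775 genes 11515 reached it in at least 1 line. Probe sets differ in brightness, so this level sorts probe sets and does not rank genes. By the F-test over the 4 line means in limma, 10 of the 44 (22.7%) differed between lines with a range of line means of at least 1, where 34.4% of all genes did. The 10 were 5 of 5 simple keratins, 2 of 16 stratified keratins (KRT12 and KRT15), 1 of 12 hair keratins (KRT40), 0 of 7 root sheath keratins, and KRT80 and KRT222. Without the minimum range 19 of the 44 members passed the adjusted p, where 13741 of all 19775 genes did. The median range between the highest and the lowest line mean was 7.22 for the simple, 0.29 for the stratified, 0.25 for the hair and 0.33 for the root sheath keratins, and 0.64 over all genes.

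**Figure D1:**
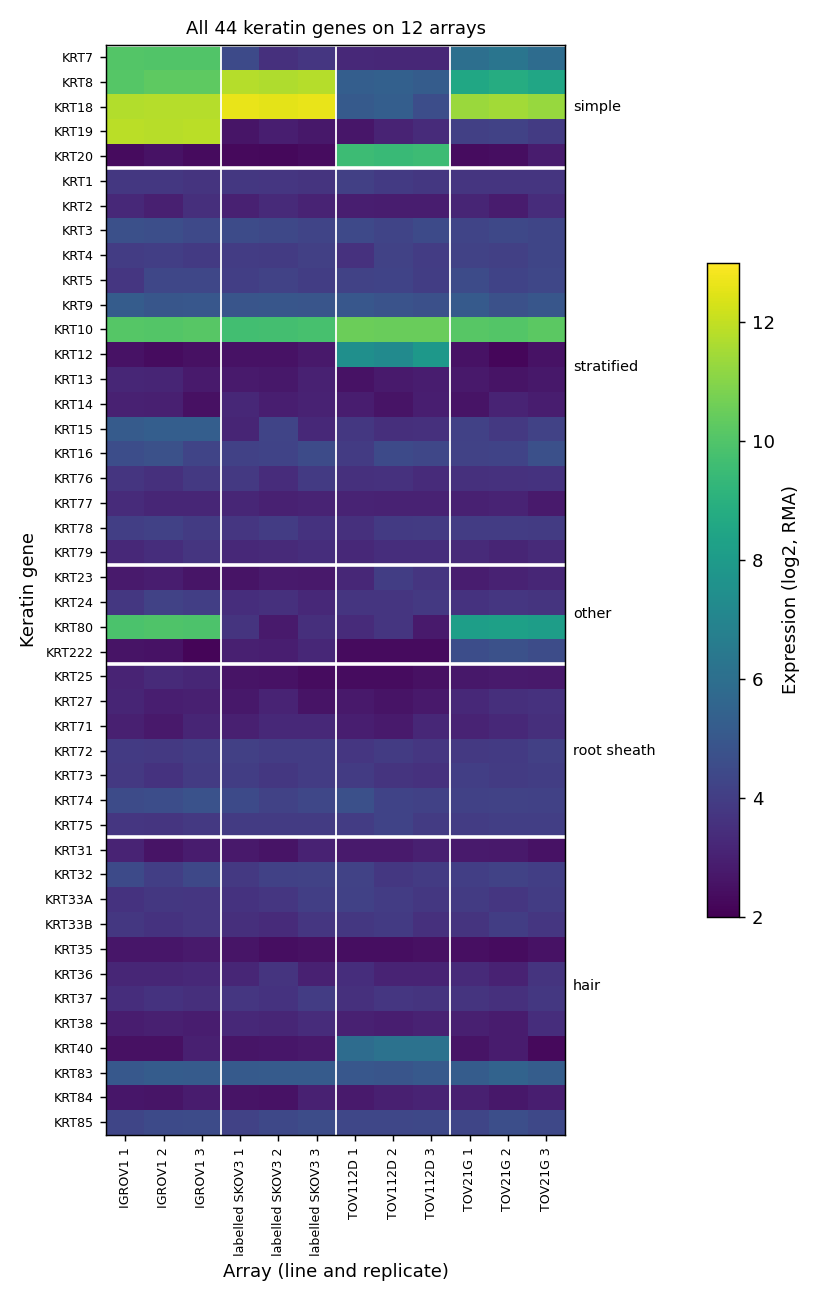
Expression (log2, RMA) of the 44 keratin genes, by class, on the 12 arrays in order of line, from 2 (dark) to 13 (yellow). The bright cells are in the simple keratins, in KRT10 in every line, in KRT12 and KRT40 in TOV112D, and in KRT80 in IGROV1 and TOV21G.

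KRT8, the type II partner of the simple pair, separated all 4 lines. Its 3 arrays read 11.76, 11.70 and 11.80 on the arrays labelled SKOV3, 10.12, 10.27 and 10.26 in IGROV1, 8.53, 8.81 and 8.50 in TOV21G, and 5.29, 5.39 and 5.20 in TOV112D. No 2 lines overlapped. IGROV1 minus SKOV3 was -1.53 ± 0.09 (SE; limma adjusted p = 1e-08), IGROV1 minus TOV21G 1.60 ± 0.09 (adjusted p = 1.2e-08) and TOV112D minus TOV21G -3.32 ± 0.09 (adjusted p = 7.7e-12). The span from the highest to the lowest line, SKOV3 minus TOV112D, was 6.46 ± 0.09 (adjusted p = 3.4e-14).

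KRT18, the type I partner of KRT8, followed the same order of lines but with 3 lines close together at the top. It read 12.64, 12.56 and 12.65 on the arrays labelled SKOV3, 11.74, 11.79 and 11.78 in IGROV1, 11.36, 11.47 and 11.29 in TOV21G, and 5.11, 5.31 and 4.61 in TOV112D. The TOV112D arrays lay far under all others, by -6.91 ± 0.11 against the mean of the remaining 3 lines (limma adjusted p = 1.1e-13). IGROV1 minus SKOV3 was -0.84 ± 0.14 (adjusted p = 0.00017) and IGROV1 minus TOV21G 0.40 ± 0.14 (adjusted p = 0.029), both under the minimum of 1, and SKOV3 minus TOV21G was called at 1.24 ± 0.14 (adjusted p = 5.8e-06). The same pair, SKOV3 minus TOV21G, differed by 3.13 ± 0.09 in KRT8 (adjusted p = 1.6e-11).

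The probe sets of KRT8 and KRT18 carry the suffix _x_at, which marks probes that may also bind related transcripts, and each gene has this single probe set in the annotation. Both genes have processed pseudogenes, so the values may hold signal of such copies. A probe set of the pseudogene KRT8P12 read 5.65 in IGROV1, 6.50 on the arrays labelled SKOV3, 5.89 in TOV112D and 5.25 in TOV21G.

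KRT7, the type II keratin of many glandular and ductal epithelia and a usual marker of ovarian carcinoma, was high in IGROV1 and intermediate in TOV21G. Its arrays read 10.07, 10.01 and 10.03 in IGROV1, 6.02, 6.29 and 5.88 in TOV21G, 4.46, 3.52 and 3.76 on the arrays labelled SKOV3, and 3.26, 3.24 and 3.22 in TOV112D. IGROV1 stood 5.63 ± 0.15 above the mean of the remaining 3 lines (limma adjusted p = 1.4e-11) and 3.97 ± 0.19 above TOV21G (adjusted p = 3.3e-09). TOV112D minus TOV21G was -2.82 ± 0.19 (adjusted p = 5.2e-08). SKOV3 minus TOV112D, at 0.67 ± 0.19 (adjusted p = 0.009), was under the minimum although the arrays did not overlap. Each array is read from a whole culture, so fewer cells with the transcript and less transcript per cell cannot be told apart.

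The other 3 probe sets of KRT7 were dim, with line means between 2.13 and 4.72, and spanned 0.16 to 0.21 between lines. With the mean of all 4 probe sets in place of the brightest, 4 of KRT7's calls fell under the minimum: SKOV3 minus the other 3 lines (-0.65), TOV112D minus the other 3 (-0.94), SKOV3 minus TOV21G (-0.55) and TOV112D minus TOV21G (-0.76).

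KRT19, the smallest type I keratin, which lacks the usual tail domain and is found in ducts and mesothelium, showed the widest range of the family. IGROV1 read 11.87, 11.82 and 11.84, TOV21G 4.07, 4.16 and 3.92, TOV112D 2.66, 3.08 and 3.34, and the arrays labelled SKOV3 2.63, 2.92 and 2.73. IGROV1 was apart from every other array, by 8.57 ± 0.12 against the mean of the remaining 3 lines (limma adjusted p = 5.1e-14). TOV112D and the arrays labelled SKOV3 overlapped, with a difference of -0.26 ± 0.14 (SKOV3 minus TOV112D, adjusted p = 0.15). TOV21G lay slightly above both: TOV112D minus TOV21G was -1.02 ± 0.14 (adjusted p = 4.6e-05), a call that was lost with arrays centred on their median (-0.92), with the gene values quantile-normalized again (-0.97), without TOV112D replicate 1 (-0.84) and without TOV21G replicate 2 (-0.97). The second probe set of KRT19 was dim, at 3.70 in IGROV1 and 3.26 to 3.50 elsewhere, and with the mean of both probe sets TOV21G minus the other 3 lines (-0.89), SKOV3 minus TOV21G (-0.77) and TOV112D minus TOV21G (-0.55) fell under the minimum.

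KRT20, a type I keratin known from the gut lining, the urothelium and Merkel cells, was high in TOV112D. That line read 9.56, 9.45 and 9.54. The other 9 arrays lay between 2.25 and 2.83, with means of 2.39 ± 0.13 in IGROV1, 2.29 ± 0.06 on the arrays labelled SKOV3 and 2.54 ± 0.25 in TOV21G (SD, n = 3 each). These 3 lines overlapped, and none of their pairs passed the adjusted p, which ran from 0.088 to 0.53. TOV112D stood 7.11 ± 0.09 (SE) above their mean (limma adjusted p = 1.5e-14), so KRT20 was the one simple keratin with its highest value in TOV112D, the line where KRT7, KRT8 and KRT18 were lowest.

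**Figure D2:**
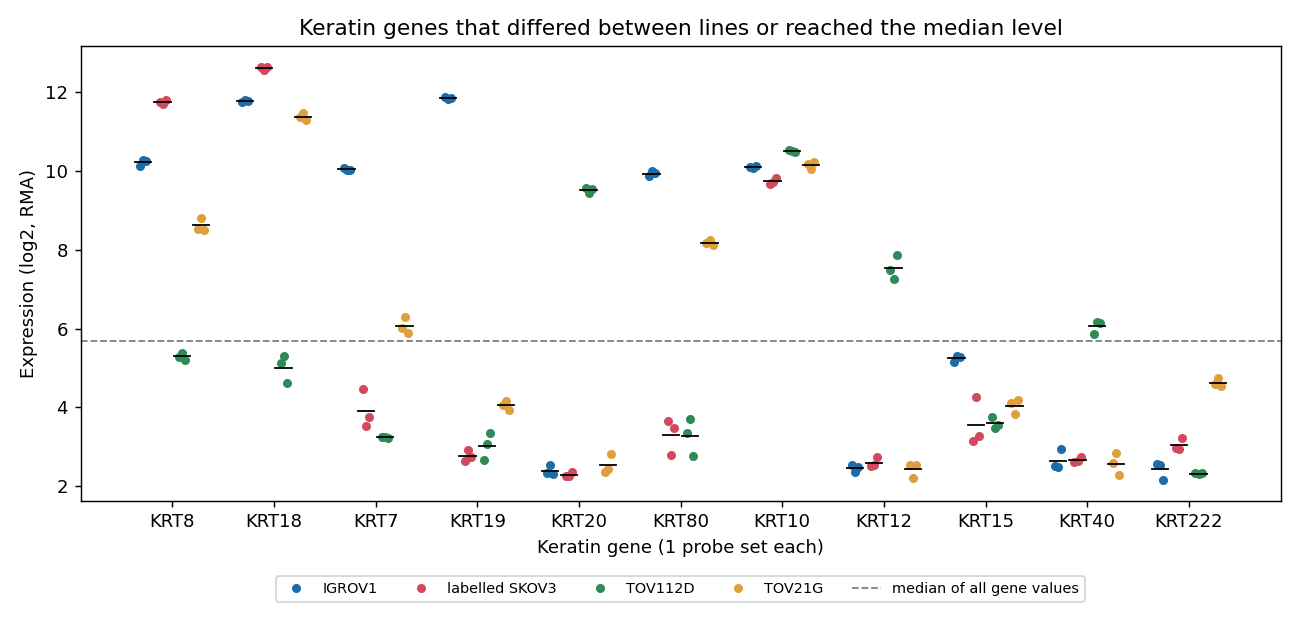
Expression (log2, RMA) of the 11 keratins that differed between lines or reached the median of all gene values, with 1 point per array, 3 arrays per line, and a bar at each line's mean. The dashed line is the median of all gene values, 5.68, and the plot shows KRT7, KRT19 and KRT80 highest in IGROV1, KRT8 and KRT18 highest on the arrays labelled SKOV3, and KRT12, KRT20 and KRT40 highest in TOV112D.

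The levels of 8 epithelial markers (EPCAM, CDH1, CLDN3, CLDN4, ESRP1, MAL2, RAB25 and ST14) are given beside these values. In IGROV1 5 of 8 reached the median gene value, in TOV21G 3, in TOV112D 2 and on the arrays labelled SKOV3 1. The log2 of their summed level ran from 13.79 to 13.89 on the IGROV1 arrays, 10.33 to 10.47 on TOV21G, 7.80 to 7.86 on TOV112D and 7.04 to 7.35 on the arrays labelled SKOV3. CDH1, the gene of E-cadherin, was 10.93 in IGROV1, 4.20 in TOV21G, 3.20 in TOV112D and 2.95 on the arrays labelled SKOV3. ESRP1, RAB25 and CLDN4 were under the median gene value in every line. The arrays with the highest KRT8 and KRT18 thus had the lowest sum of epithelial markers. Of 7 mesothelial markers 3 reached the median gene value in IGROV1, the line highest in KRT19 (LRRN4 at 8.16, WT1 at 7.89 and MSLN at 7.30), 1 on the arrays labelled SKOV3 (WT1 at 8.89), and 0 in TOV112D and TOV21G. The log2 of their summed level ran from 9.55 to 9.71 in IGROV1, 9.18 to 9.22 on the arrays labelled SKOV3, 7.57 to 7.74 in TOV21G and 6.96 to 7.04 in TOV112D. The part of either list in the keratin values was not tested.

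KRT80, a type II keratin found broadly at low level in epithelia, followed KRT7 in its order of lines. IGROV1 read 9.87, 9.99 and 9.94 and TOV21G 8.18, 8.24 and 8.13, while the arrays labelled SKOV3 read 3.65, 2.79 and 3.47 and TOV112D 3.36, 3.71 and 2.78. The low lines overlapped, with a difference of 0.02 ± 0.23 (limma adjusted p = 0.95). IGROV1 minus TOV21G was 1.75 ± 0.23 (adjusted p = 3.6e-05) and SKOV3 minus TOV21G -4.88 ± 0.23 (adjusted p = 2e-09).

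KRT222, a short keratin-like gene at one end of the type I cluster, was called higher in TOV21G than in each of the other lines. Its arrays read 4.60, 4.73 and 4.55 there, 2.96, 2.94 and 3.23 on the arrays labelled SKOV3, 2.57, 2.55 and 2.16 in IGROV1, and 2.33, 2.30 and 2.34 in TOV112D. TOV21G stood 2.03 ± 0.09 above the mean of the remaining 3 lines (limma adjusted p = 1.6e-09) without overlap, though it stayed under the median gene value. The second probe set of KRT222 also had its highest mean in TOV21G, at 3.07 against 1.97 to 2.34. With the mean of both, TOV112D minus the other 3 lines (-1.04 ± 0.09, adjusted p = 6.8e-07) fell under the minimum, at -0.65.

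In the stratified class, KRT10 stood out by being high in every line. KRT10 is the type I keratin of the suprabasal epidermis, where its partner is KRT1. It was 10.10 ± 0.03 in IGROV1, 9.73 ± 0.07 on the arrays labelled SKOV3, 10.50 ± 0.03 in TOV112D and 10.15 ± 0.09 in TOV21G (SD, n = 3 each). TOV112D minus the other 3 lines was 0.51 ± 0.05 (limma adjusted p = 2.4e-06) and SKOV3 minus the other 3 was -0.52 ± 0.05 (adjusted p = 2e-06), with no overlap but under the minimum, and the range of 0.77 was repeated by the other probe sets of the gene (0.77 each). KRT1 stayed between 3.69 and 3.92 in its line means.

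KRT12, the type I keratin of the corneal epithelium, was high in TOV112D. It read 7.47, 7.25 and 7.88 there and 2.20 to 2.75 on the other 9 arrays, a difference of 5.04 ± 0.12 from the mean of the remaining 3 lines (limma adjusted p = 3e-12). Those 3 lines overlapped, and none of their pairs passed the adjusted p (0.36 to 0.88). KRT3, the type II partner of KRT12 in the cornea, had line means of 4.31 to 4.59 and was not called.

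KRT15, a type I keratin of basal cells and of the hair bulge, was highest in IGROV1. It read 5.15, 5.30 and 5.29 there, 4.12, 3.84 and 4.18 in TOV21G, 3.77, 3.49 and 3.54 in TOV112D, and 3.15, 4.25 and 3.26 on the arrays labelled SKOV3. IGROV1 stood 1.51 ± 0.19 above the mean of the remaining 3 lines (limma adjusted p = 1.6e-05) without overlap, under the median gene value in all lines. The spread withon the arrays labelled SKOV3, 0.61 (SD, n = 3), was the largest of any member in any line, where the median over members and lines was 0.13. None of the pairs among TOV21G, TOV112D and those arrays was called.

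The basal keratins KRT5 and KRT14, which form the pair of the lowest layer of the epidermis, were not called in any comparison. KRT5 had line means of 4.07 to 4.36 and KRT14 of 2.80 to 3.06. The other stratified members behaved likewise: over the 13 that were neither called nor at the median, single arrays ran from 2.48 to 5.19 (highest KRT9, of palm and sole skin) and no range of line means passed 0.36.

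Among the 12 hair keratins, KRT40, a type I keratin of the hair cuticle, was the one that differed. TOV112D read 5.87, 6.16 and 6.13 and the other 9 arrays 2.30 to 2.95, a difference of 3.42 ± 0.12 (limma adjusted p = 1.4e-10). The other 3 lines overlapped (pairwise adjusted p 0.65 to 0.91). The second probe set of KRT40 was at 3.70 in TOV112D and 1.86 to 1.89 elsewhere. With the mean of both, TOV112D kept its call, while the calls of the other lines against their respective 3, which contain TOV112D, fell under the minimum (-0.88 for IGROV1, -0.84 for SKOV3 and -0.90 for TOV21G). The 11 other hair members ran from 2.38 to 5.51 on single arrays, with KRT83 highest, and their ranges of line means were at most 0.37.

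The 7 root sheath keratins (KRT25, KRT27 and KRT71 to KRT75) ran from 2.36 to 4.78, with KRT74 highest. The widest range of line means among them was 0.79, in KRT25, with no call. Outside the classes, KRT23, a type I keratin known to be induced in some gastrointestinal cancers, had its highest mean in TOV112D (3.64 ± 0.40, SD, n = 3) against 2.71 to 3.04 elsewhere, a range of 0.93. KRT24 was also not called, with a range of 0.61. In all, 33 members were neither called in a comparison nor at the median in a line, with a median array value of 3.66.

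Each line was then compared with the mean of the other 3, and the share of members called was set beside that of all genes. In IGROV1 9 members (20.5%) differed from the mean of the remaining 3 lines, where 14.3% of all genes did. KRT7, KRT8, KRT15, KRT18, KRT19 and KRT80 were higher there (6 members, with 7.2% of all genes higher) and KRT12, KRT20 and KRT40 lower (3 members, with 7.1% of all genes lower). On the arrays labelled SKOV3 8 members did (18.2%, all genes 14.5%), KRT8 and KRT18 higher (2 members, all genes 6.53%) and KRT7, KRT12, KRT19, KRT20, KRT40 and KRT80 lower (6 members, all genes 8.01%). In TOV112D 9 members did (20.5%, all genes 14.7%), KRT12, KRT20 and KRT40 higher (3 members, all genes 7.03%) and KRT7, KRT8, KRT18, KRT19, KRT80 and KRT222 lower (6 members, all genes 7.64%). In TOV21G 7 members did (15.9%, all genes 12.2%), KRT18, KRT80 and KRT222 higher (3 members, all genes 7.09%) and KRT12, KRT19, KRT20 and KRT40 lower (4 members, all genes 5.15%). Lower values of KRT12, KRT20 and KRT40 against a mean that holds TOV112D restate the level in TOV112D. The lower call of KRT19 in TOV21G (4.05) was against a mean that holds IGROV1 (11.84). TOV21G lay above the arrays labelled SKOV3 (2.76) and TOV112D (3.02). The higher call of KRT18 in TOV21G (11.37) was against a mean that holds TOV112D (5.01). TOV21G lay under IGROV1 (11.77) and the arrays labelled SKOV3 (12.62). The 4 comparisons share arrays. Without the arrays labelled SKOV3, 10 members were called in IGROV1 (6 higher, 4 lower), 10 in TOV112D (3 and 7) and 7 in TOV21G (3 and 4). The reference means differ there, so the shares above do not apply to these counts, and no share over all genes was computed.

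Between pairs of lines, the members called were 5 for IGROV1 and SKOV3 (11.4%, all genes 18.8%), 9 for IGROV1 and TOV112D (20.5%, all genes 18%) and 6 for IGROV1 and TOV21G (13.6%, all genes 12.6%). They were 5 for SKOV3 and TOV112D (11.4%, all genes 16.1%), 6 for SKOV3 and TOV21G (13.6%, all genes 17.4%) and 9 for TOV112D and TOV21G (20.5%, all genes 17%). These shares lay near those of all genes. IGROV1 and TOV112D differed in both directions, with KRT7, KRT8, KRT15, KRT18, KRT19 and KRT80 higher in IGROV1 and KRT12, KRT20 and KRT40 higher in TOV112D.

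The order of the genes on the chromosome was then set beside the values. In the type I cluster on chromosome 17, 48 genes were measured from KRT222 up to the pseudogene KRT42P: 23 keratins, 23 keratin-associated proteins (KRTAP genes, whose products embed the filaments of the hair shaft) and 2 other genes. The genes called higher in TOV112D all lay in the stretch from KRT12 to KRTAP4-9, whose limits were chosen after the values were seen. Of its 14 measured genes 9 were higher and 0 lower, namely KRT12, KRT20 and KRT40 of 4 keratins and 6 of 10 KRTAP genes. In the remaining 34 genes of the cluster 0 were higher and KRT222 and KRT19 were lower in TOV112D. That no higher gene lay outside the stretch follows from how its limits were chosen. Over all genes 7.03% were called higher and 7.64% lower in TOV112D.

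KRTAP4-7 had the largest of the KRTAP differences. It was 6.10 ± 0.10 in TOV112D and 2.21 ± 0.23, 2.18 ± 0.04 and 2.20 ± 0.17 in IGROV1, the arrays labelled SKOV3 and TOV21G (SD, n = 3 each), 3.90 ± 0.09 (SE) above their mean (limma adjusted p = 3.1e-12). KRTAP4-9 was 6.82 ± 0.13 against 3.27 to 3.36, KRTAP1-1 5.13 ± 0.15 against 2.64 to 3.03, KRTAP1-5 5.22 against 3.14 to 3.21 and KRTAP3-2 3.51 ± 0.36 against 2.19 to 2.31. KRTAP3-1 was 6.51 ± 0.11 in TOV112D but 6.81 ± 0.02 in TOV21G, against 4.41 and 4.49 in the other lines. KRT23, inside the stretch, missed the minimum. KRTAP genes have near-identical copies, and the probe set of KRTAP4-9 ends in _x_at, so which copy gave the signal is uncertain.

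At the other end of the cluster KRT15 and KRT19 are neighbours, and both were highest in IGROV1 (1.51 and 8.57 above the mean of the remaining 3 lines). In the type II cluster on chromosome 12, with 23 measured genes, the differences lay at the ends. KRT80, the noncoding gene LINC00592 and KRT7 sit at one end and were highest in IGROV1, next in TOV21G: LINC00592 was 6.90 ± 0.10 in IGROV1, 6.52 ± 0.13 in TOV21G, 4.29 ± 0.05 on the arrays labelled SKOV3 and 4.28 ± 0.32 in TOV112D (SD, n = 3 each). KRT8 and KRT18 sit at the other end. None of the 17 keratins between KRT7 and KRT8 was called in any line.

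**Figure D3:**
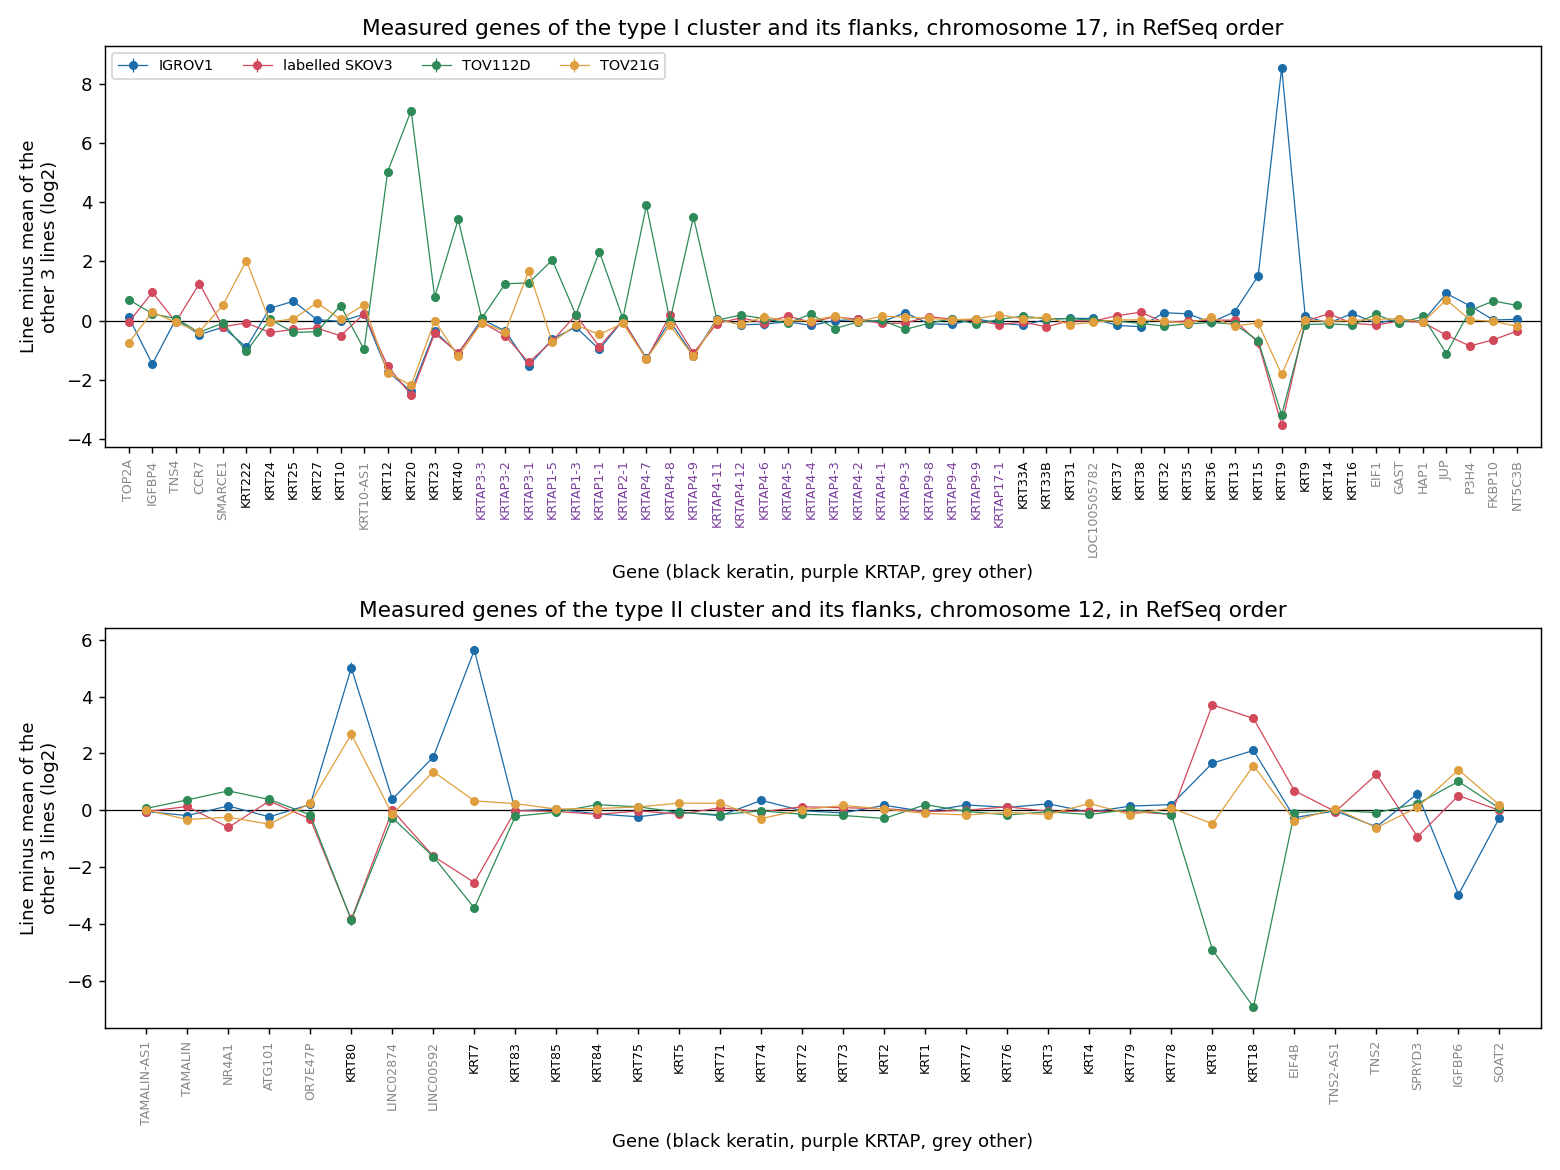
Difference of each line from the mean of the remaining 3 lines (log2, with its standard error) for the measured genes of the type I cluster (top) and the type II cluster (bottom) in RefSeq order with neighbouring genes at both ends; lines join the points of one cell line. From KRT12 to KRTAP4-9 the TOV112D points of 9 of the 14 genes lie at least 1 above 0, up to 7.11 at KRT20, IGROV1 stands at 8.57 at KRT19, and in the type II cluster the differences lie at KRT80 to KRT7 and at KRT8 and KRT18.

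Genes that work with keratins were counted from lists. Of 24 measured genes of the desmosomes, hemidesmosomes and keratin linkers, the sites where keratin filaments are anchored, 10 were higher and 1 lower in IGROV1, with a median difference of 0.78 (all genes -0.01), and 0 were higher and 11 lower in TOV112D, with a median of -0.61 (all genes -0.02). On the arrays labelled SKOV3 4 were higher and 2 lower, and in TOV21G 2 and 1, which became 4 and 3 without the arrays labelled SKOV3. Over all genes 7.2% were called higher and 7.1% lower in IGROV1, and 7.03% and 7.64% in TOV112D. The shares were 6.53% and 8.01% on the arrays labelled SKOV3 and 7.09% and 5.15% in TOV21G, and none was computed without the arrays labelled SKOV3. DSP, the gene of desmoplakin, which ties keratins to the desmosome, was 10.41 in IGROV1, 9.35 on the arrays labelled SKOV3, 7.92 in TOV21G and 2.82 in TOV112D, -6.41 ± 0.06 from the mean of the remaining 3 lines in TOV112D (limma adjusted p = 1.1e-15). The desmosomal cadherin gene DSG2 was 5.39 in TOV112D against 9.80 to 11.52, and the plakophilin gene PKP2 3.20 against 7.36 to 7.66. PKP3 was highest in IGROV1 at 9.30, with 6.95 in TOV21G, 5.47 on the arrays labelled SKOV3 and 5.33 in TOV112D.

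FAM83H, which recruits casein kinase to keratin filaments, had its line means in the order IGROV1 10.01, TOV21G 7.65, SKOV3 7.48 and TOV112D 4.18. EPPK1, the gene of the keratin-binding epiplakin, was 7.41 in IGROV1 and 3.07 to 4.08 elsewhere (3.73 ± 0.09 above the mean of the remaining 3 lines, limma adjusted p = 3.7e-12). DSC2, a desmosomal cadherin, went another way, with 8.12 on the arrays labelled SKOV3, 6.93 in IGROV1, 5.38 in TOV112D and 2.88 in TOV21G. ITGA6, a subunit of the hemidesmosomal integrin, was highest on the arrays labelled SKOV3 at 10.00, against 6.73 to 8.44.

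Of 16 measured genes of other intermediate filaments, 1 was higher and 2 lower in IGROV1 (2 and 3 without the arrays labelled SKOV3), 3 and 0 in those arrays, 1 and 4 in TOV112D, and 2 and 1 in TOV21G (5 and 1 without those arrays). Between 5.15% and 8.01% of all genes were called in 1 direction in the comparisons with all 4 lines, and several of the list's counts lie near that. No such share was computed without those arrays. Its median difference was -0.30 in IGROV1, 0.32 on the arrays labelled SKOV3, -0.07 in TOV112D and 0.07 in TOV21G. VIM, the gene of vimentin, the filament of mesenchymal cells, was 12.62 to 13.80 in all 4 lines and was not called against the mean of the other 3 in any line. VIM did differ between lines by the F-test, with a range of 1.17 (limma adjusted p = 1.7e-09). It was lowest in IGROV1, at -0.98 ± 0.04 from the mean of the other 3 (limma adjusted p = 6e-10), just under the minimum. NEFH, a neurofilament gene, was 10.51 in TOV112D, 7.80 on the arrays labelled SKOV3, 4.20 in TOV21G and 3.31 in IGROV1. NES, the gene of nestin, a filament of progenitor cells, was 11.28 on the arrays labelled SKOV3 and 4.88 in TOV112D, and LMNA, the gene of the nuclear lamins A and C, was 7.62 in TOV112D against 10.35 to 10.65.

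Of 19 measured regulators tied to keratin or epithelial genes, 8 were higher in IGROV1 and 3 lower, 6 and 6 on the arrays labelled SKOV3, 4 and 7 in TOV112D, and 6 and 4 in TOV21G. The shares over all genes were 7.2% called higher and 7.1% called lower in IGROV1, 6.53% and 8.01% on the arrays labelled SKOV3, 7.03% and 7.64% in TOV112D, and 7.09% and 5.15% in TOV21G. The list's median difference was 0.04, -0.14, -0.37 and 0.13 in that order, and that of all genes -0.01, -0.02, -0.02 and 0.01. TFAP2A, the AP-2 factor known to act at epidermal keratin promoters, was 3.39 in TOV112D against 9.74 to 10.62 (-6.66 ± 0.12, limma adjusted p = 3.2e-13). KLF5 and ELF3, factors of glandular epithelium, were high in IGROV1 (10.08 and 8.31) and TOV21G (8.63 and 8.10), and EHF was 8.72 in IGROV1 and 3.06 to 3.53 elsewhere. Repressors of the epithelial state were not on one side: TWIST1 was 12.08 in TOV112D, 7.82 on the arrays labelled SKOV3, 7.12 in TOV21G and 2.51 in IGROV1, and ZEB2 was 8.47, 7.58, 2.85 and 2.06 in the same order. ZEB1, by contrast, was 3.48 in TOV112D and 7.80 to 9.18 in the other lines.

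Of 11 measured factors of the hair follicle, 5 were higher and 2 lower in TOV112D, 0 and 5 in IGROV1, 3 and 3 on the arrays labelled SKOV3, and 2 and 2 in TOV21G. Over all genes 7.03% were higher and 7.64% lower in TOV112D, and 7.2% and 7.1% in IGROV1. The shares were 6.53% and 8.01% on the arrays labelled SKOV3, and 7.09% and 5.15% in TOV21G. The list's median difference was 0.85 in TOV112D and -0.69 in IGROV1. HOXC13, known as a direct regulator of hair keratin genes, was 6.21 in TOV112D against 3.20 to 4.01 (2.69 ± 0.10, limma adjusted p = 3e-10). LEF1, a factor of Wnt signalling in the hair matrix, was 9.47 in TOV112D, 7.84 on the arrays labelled SKOV3, 3.28 in TOV21G and 3.03 in IGROV1. MSX1 had the same high lines, 10.81 and 9.32, with 4.32 and 4.52 in the others. S100A3 and VDR went the other way. S100A3 was lowest in TOV112D, at 4.08 against 4.88 to 6.69. VDR was 4.91 in TOV112D and 4.53 on the arrays labelled SKOV3, under 6.42 in IGROV1 and 6.94 in TOV21G. Of 33 measured KRTAP genes, 6 were higher and 0 lower in TOV112D. With the dim genes left out 3 of 4 were higher. KRTAP4-7 and KRTAP4-9 passed that filter only through their level in TOV112D, so the filtered count adds no support.

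Fibroblast markers did not share one line of highest level. Of 8 measured, 6 reached the median gene value in TOV112D (COL3A1 at 13.27 and LUM at 11.50), 3 on the arrays labelled SKOV3, 2 in TOV21G and 1 in IGROV1. The log2 of their summed level was 13.82 to 13.90 on the TOV112D arrays, 12.02 to 12.10 on the arrays labelled SKOV3, 8.86 to 9.02 on TOV21G and 7.50 to 7.55 on IGROV1. COL3A1, LUM, DCN and FAP were highest in TOV112D, COL1A1, THY1 and PDGFRB on the arrays labelled SKOV3, and COL1A2 in TOV21G. COL1A2 and PDGFRB were under the median in TOV112D, at 3.73 and 4.78. Their part in the keratin values was not tested.

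Of 20 measured genes of the cornified envelope and epidermal differentiation, which accompany stratified keratins in skin, 1 was higher and 0 lower in IGROV1, and 0 and 1 in each of the other lines. In all cases this was FLG, the gene of filaggrin, which aggregates keratin filaments: it was 8.89 in IGROV1 and 2.27 to 2.60 elsewhere (6.49 ± 0.07, limma adjusted p = 1.2e-14). The lower calls in the other lines restate the level in IGROV1, which their reference means contain. Over all genes 5.15% to 8.01% were called in 1 direction in these comparisons, and 1 of 20 lies near that. No other gene of that list reached the median gene value in any line.

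**Figure D4:**
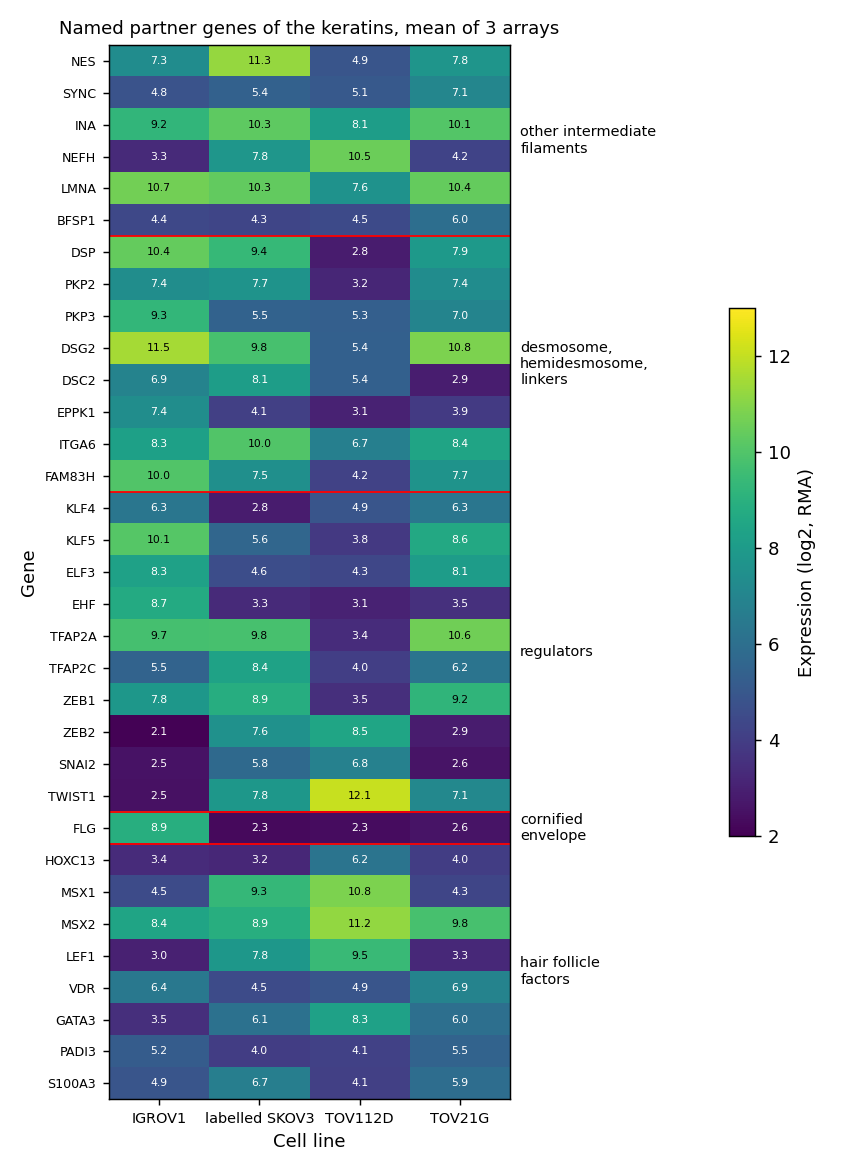
Mean expression (log2, RMA, 3 arrays per line) of the selected partner genes of the keratins, grouped by list, with each mean printed to 1 decimal. TOV112D is lowest of the 4 lines in DSP, DSG2, PKP2, FAM83H, TFAP2A and ZEB1 and highest in NEFH, TWIST1, ZEB2, HOXC13, MSX1 and LEF1.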

How the data were processed

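The values are log2 RMA levels as deposited, 54675 probe sets by 12 arrays, computed with affy per the submitters' processing notes (versions and annotation: not given in the sources used here). RMA quantile-normalizes arrays, which hides any difference in total RNA, and differences against dim values depend on the floor of the scale. The platform annotation listed 42898 probe sets; 41091 naming 1 gene were used, 1801 naming several (1 of them names a keratin) were left out, and 11777 are unnamed here. The 44 members had 56 probe sets, and 9 members had more than 1. RefSeq GRCh38.p14 gave gene order and promoter windows; the array table names no build, so no array coordinates are given.

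Arrays were grouped by their titles. limma 3.58.1 in R 4.3.3 fitted 1 mean per line over 12 arrays (8 residual degrees of freedom), with eBayes and Benjamini-Hochberg adjustment over all 19775 genes. On simulated data with 50 genes changed at each log2 size of 1.5, 2, 3 and 4, all 50 were recovered for every line against the others, with 0 false calls. The F-test made 1 false call in the IGROV1 simulation and 0 in the others. The unchanged genes had equal means in all lines and no size near the minimum of 1 was tried. The simulation thus checks the code and does not describe calls near the minimum. Members were described singly when a line mean reached the median gene value or the gene was called. Up to 4 called genes per partner list and line were named. VIM, single marker genes and cluster neighbours were named after their values were seen. Members and lists were chosen with earlier results of these data known. Alternatives were another probe set rule, a filter on dim genes, other scalings, another prior, the replicate number as a block, a larger minimum difference, the arrays of a pair alone, and leaving out arrays.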

Additional observations from a re-analysis of the deposited data

How the results depend on the processing

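The 10 keratins made 73 calls over the comparisons, and no call changed direction under any alternative. With a minimum difference of 2 in place of 1, by construction fewer genes were called: 5 in IGROV1 and 3 in TOV21G against the mean of the other 3 lines, and 3 each for IGROV1 minus SKOV3, IGROV1 minus TOV21G and SKOV3 minus TOV21G. Without probe sets ending in _x_at, 41 members were left, and KRT8 and KRT18 dropped out with all their calls. Of the 73 calls 56 were kept, and SKOV3 minus TOV112D, for example, had 3 calls in place of 5. With the mean of all probe sets 11 calls were lost, in KRT7, KRT19, KRT40 and KRT222, where the other probe sets were dim. With arrays centred on their median, a shift of -0.09 to 0.12 between arrays, and with renewed quantile normalization 1 call each was lost, TOV112D minus TOV21G in KRT19.

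The filter on dim genes, the trended and robust prior, the arrays of a pair alone and leaving out the arrays labelled SKOV3 lost no call among the genes they kept. Leaving out 1 array in turn gave 10 to 11 members that differed between any lines, 9 to 9 calls in IGROV1, 8 to 9 in SKOV3, 9 to 10 in TOV112D and 7 to 7 in TOV21G against the other 3 lines. For pairs it gave 5 to 5 (IGROV1 and SKOV3), 9 to 10 (IGROV1 and TOV112D), 6 to 6 (IGROV1 and TOV21G), 5 to 6 (SKOV3 and TOV112D), 6 to 6 (SKOV3 and TOV21G) and 8 to 9 (TOV112D and TOV21G).

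Replicate numbers were shared between lines, but same-numbered arrays did not deviate together: 2 of 18 pair correlations were over 0.1, from -0.0998 to 0.128. The arrays share only a number, and the fit with the replicate block kept all 73 calls, with 10 members that differed between lines.

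Alternatives for the partner lists were added after the data were seen. Hair follicle factors had 2 higher and 1 lower in SKOV3 with the mean of all probe sets (3 and 3 otherwise), and the cause was not tested. No share over all genes was computed for that setting.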
